A study of Mus musculus with 6 samples.

Results

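The subunit genes of the constitutive proteasome were examined in mouse samples labelled as CD4+CD25+ T cells, with and without deletion of Hdac3, a class I histone deacetylase. Members were taken by symbol alone, as probe sets with a single platform symbol made of Psma, Psmb, Psmc or Psmd and a number, without the inducible subunit genes Psmb8, Psmb9 and Psmb10. Where a gene had several probe sets, the brightest over the 6 samples represented it. The rule gave 35 genes of the 12393 measured, 15 of the core particle (Psma and Psmb) and 20 of the regulatory cap (Psmc and Psmd). Each sample was hybridised to an Affymetrix Mouse430a array, and the deposited values are log2 expression after robust multiarray averaging. The 3 wild type samples and the 3 Hdac3 deleted samples all had the C57BL6 strain background, and the deleted samples (HDAC3-fl/fl_FOXP3cre) carried a floxed Hdac3 gene with a Cre recombinase named for Foxp3, the lineage factor of regulatory T cells. A Cre of that kind acts in cells that express Foxp3, so other cells in a preparation would keep Hdac3. The labels give no age, treatment or time. They also do not state that each sample is another animal, and the p-values therefore reflect the spread among these 6 samples alone, part or all of which may be technical.

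The median of an array was 6.28 to 6.29 for wild type and 6.43 to 6.47 for deleted samples. Hdac3 itself went from 9.04 ± 0.028 to 8.49 ± 0.024 (SD, n = 3), or by -0.55 with an SE of 0.050 (limma, adjusted p = 7.45e-05), and the position of its probe set relative to the floxed exons was not determined. The source label of the deleted samples names Hdac11 in place of Hdac3, and their description names HDACII. Their titles and genotype name Hdac3 and were followed here. Of 5 markers of the labelled cell type, Foxp3 did not exceed the range of the 27 bacterial control probe sets (2.37 to 5.16) in either group (3.77 ± 0.29 and 3.68 ± 0.15). The other 4 were above it, where Il2ra (CD25) rose by 0.71, Ikzf2 and Tnfrsf18 fell by 1.58 and 0.86, and Ctla4 differed by 0.072 without a call. All 4 CD3 genes of T cells were lower in the deleted samples, with a mean level of 12.17 to 12.26 in wild type and 10.73 to 10.77 in deleted samples. All 18 macrophage markers were higher, with a mean level of 5.45 to 5.53 against 11.69 to 11.77, and 9 of them were inside the background range in wild type. All 14 neutrophil markers were higher as well, at 4.64 to 4.96 against 10.41 to 10.42, also with 9 in the background range in wild type. Of 9 cell division genes, 8 were higher and 1 lower. Of 4 dendritic cell markers 3 were higher, led by Batf3 (5.31) and Itgax (4.29), and of 3 plasma cell markers 2 were, led by Jchain (2.50). Of 5 B cell markers 1 was higher (Cd79b, 1.01) and 1 lower (Blk, -0.43, inside the background range), of 2 CD8 T cell markers 1 was lower (Cd8b1, -1.12), and both natural killer cell markers were inside the background range. These shifts run through all 3 deleted samples, their part in the proteasome results was not tested, and in bulk RNA fewer cells of a type and less RNA per cell cannot be told apart.

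The proteasome degrades proteins that carry ubiquitin chains. Its barrel-shaped core is built of outer alpha rings, which gate the entrance, and inner beta rings, which hold the proteolytic sites. The cap at the end of the barrel has a base, whose ATPase ring unfolds the substrate and threads it into the core, and a lid, which removes the ubiquitin. In lymphocytes interferon-induced subunits can replace the constitutive catalytic ones and alter the peptides presented on MHC class I.

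Proteasome subunit genes differed little between the groups, and most of the differences that passed the test were falls. With limma and adjustment over all 12393 genes (adjusted p below 0.05), 19 of the 35 members fell and 5 rose, while 11 did not pass. The background was 38.8% of all genes called lower and 22.4% called higher, beside 54.3% and 14.3% of the members. In either direction 61.2% of all genes passed. The shares over all genes, here and below, are not matched for level. Of all genes 3553 lay inside the range of the bacterial controls in both groups, but only 1 of the members. Shares among readable genes alone were not determined, so the excess of falls cannot be set against them. None of the members reached a 2-fold difference, where 13.5% of all genes passed both the test and that fold. At 1.5-fold 3 members passed (Psmb1, Psmd5 and Psmd10, all lower), beside 27.3% of all genes in either direction and 13.7% lower. Differences of the members, given throughout as Hdac3 deleted minus wild type on the log2 scale, ran from -0.80 (Psmd10) to 0.40 (Psmc1), with an SD over the members of 0.29 against 1.05 over all genes. Only 4 members (11.4%) differed by 0.5 or more in either direction, against 32.3% of all genes. The median difference was -0.20 for the core and -0.14 for the cap, beside -0.17 for all genes, so both lists sat about 0.03 from the general shift. The core median was -0.23 without Psma8, a member inside the background range. The values of the groups did not overlap in 22 members that were lower and in 7 that were higher, where the background shares are 43.1% and 24.3%.

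**Figure D1:**
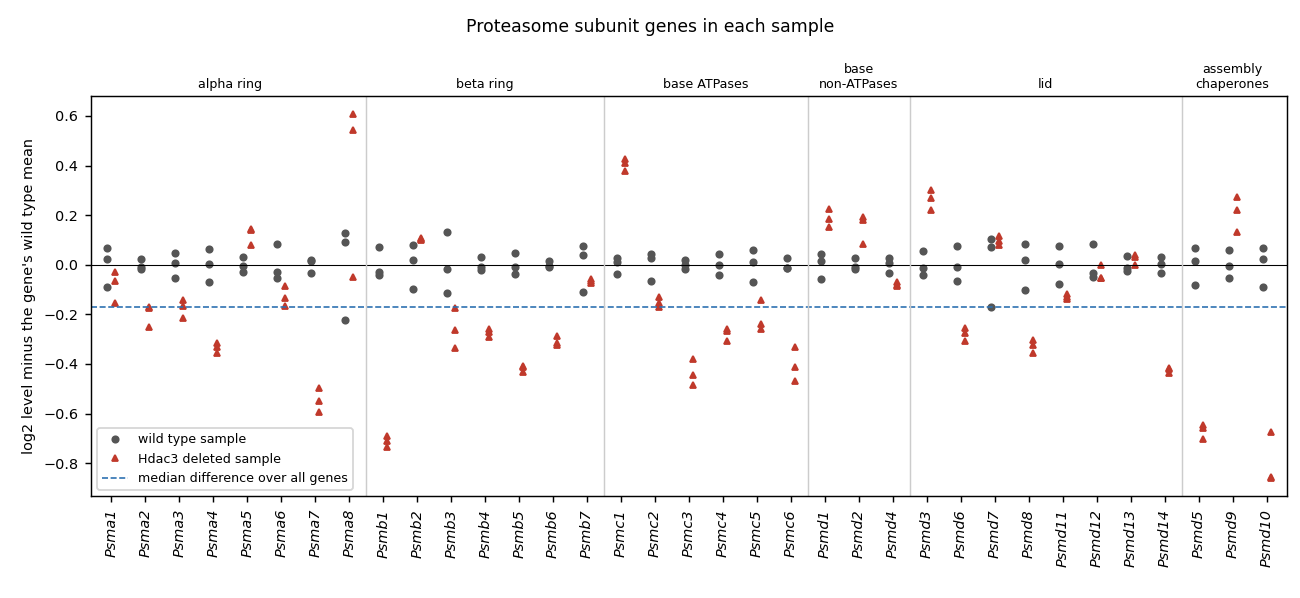
Log2 level of each of the 35 subunit genes in each sample, minus the gene's own wild type mean (vertical axis), with genes ordered by role along the horizontal axis. Circles are the 3 wild type samples and triangles the 3 Hdac3 deleted samples, and the dashed line is the median difference over all genes (-0.17). The triangles of Psma7, Psmb1, Psmd5 and Psmd10 lie lowest, with mean differences of -0.55, -0.71, -0.67 and -0.80, and the triangles of Psmc1 lie close together around 0.40. Those of Psma8, which is inside the background range, are scattered around 0.37.

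The samples of a group resembled each other in this gene set. When every gene was set against its wild type mean, the median over the core members was -0.25, -0.18 and -0.17 in the 3 deleted samples and within 0.02 of 0 in wild type. For the cap it was -0.15, -0.14 and -0.13 in the deleted samples. Over all genes the same quantity was -0.15, -0.20 and -0.13. The first deleted sample was the lowest in the core, and no deleted sample overlapped wild type in either list.

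**Figure D2:**
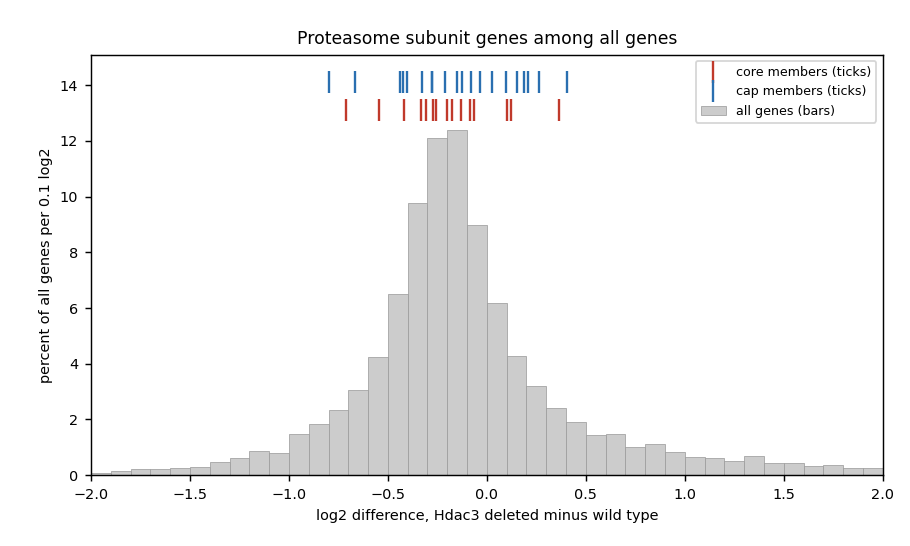
Distribution of the log2 difference (Hdac3 deleted minus wild type, horizontal axis) over all genes, as the percent of genes per 0.1 log2 (bars, vertical axis; genes beyond -2 and 2 are not drawn), with each core member and each cap member as a tick above it. All ticks lie between -0.80 and 0.40, around the peak of the bars.

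The direction of a small difference depended on how the arrays were set to a common scale. Centring each array on its median moved the median of all genes by -0.16, and cyclic loess between arrays moved it by 0.17. With median centring 26 members were called lower and 1 higher, against a background of 58.3% and 17.8%. With cyclic loess 8 were called lower and 10 higher, against 23.5% and 30.0%, and the medians became 0.02 for the core and 0.07 for the cap. Of all genes called, 36.6% were higher on the deposited scale, 23.3% with median centring and 56.1% with cyclic loess, and of the members called 20.8%, 3.7% and 55.6% were. Relative to the median of all genes, the core stood at -0.03 and the cap at 0.03 on the deposited scale. Median centring shifts all genes of an array alike and so cannot change these values. They were -0.059 and 0.0061 with repeated quantile normalization, and 0.02 and 0.07 with cyclic loess. Calls for 9 members were the same under the deposited, median centred, cyclic loess and repeated quantile scales. These were the falls of Psma7, Psmb1, Psmb5, Psmc3, Psmc6, Psmd5, Psmd10 and Psmd14 and the rise of Psmc1. The share of all genes that kept a call under all of these scales was not determined.

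**Figure D3:**
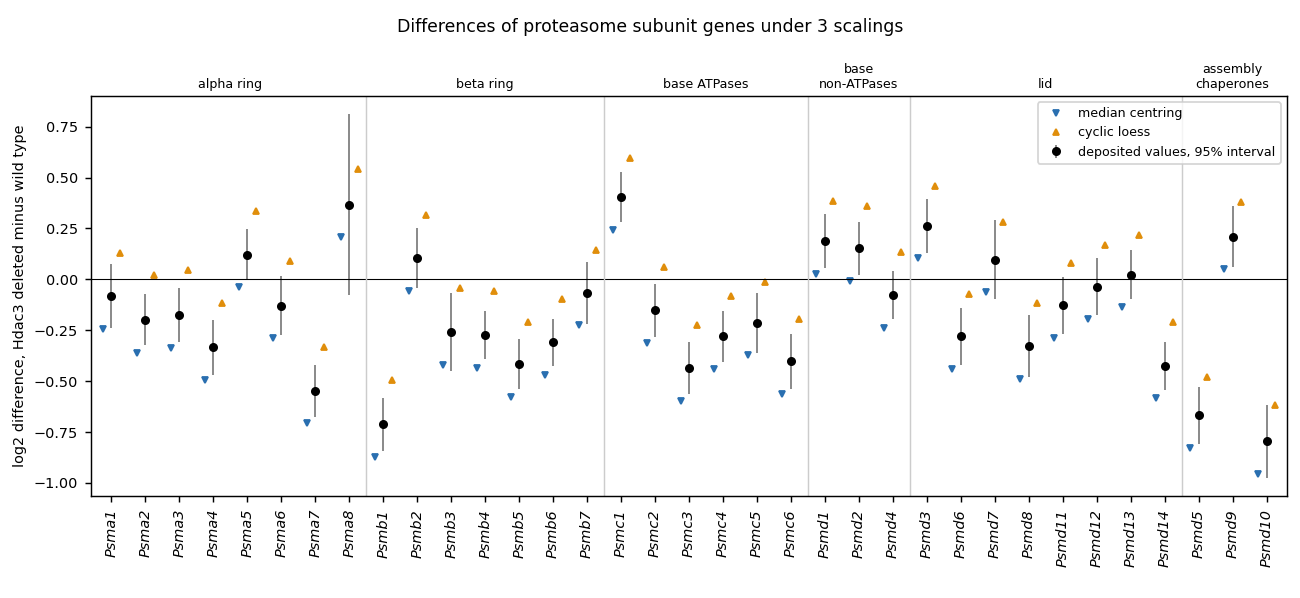
Log2 difference (Hdac3 deleted minus wild type, vertical axis) of each subunit gene (horizontal axis, ordered by role). Black points are the deposited values with 95% intervals from the limma fit, blue triangles follow median centring and orange triangles follow cyclic loess. The 8 members that stay called lower, among them Psmb1 and Psmd10, lie below 0 with all 3 symbols, and Psmc1 lies above 0 with all 3.

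Proteasome subunit genes are known to be driven together by Nfe2l1, a transcription factor that is activated when proteasome capacity is short and binds antioxidant response elements. RefSeq promoter windows (GRCm38.p6) were matched by symbol for 28 of the 35 members, and the 250 bases before the start were searched on both strands for the element's core, TGACNNNGC, where N is any base. It occurred in 5 of the 30 windows of members (16.7%) and in 10.2% of all 32851 windows of that length. The CCAAT box, bound by the factor built of Nfya, Nfyb and Nfyc, occurred in 11 of the 30 windows (36.7%) and in 33.8% of all windows. The same bases can count for both motifs where matches overlap, and a gene with several starts can have several windows. The 5 windows with the response element core are shown so that the element can be read beside genes that fell, rose or did not pass the test. They are given from 5′ to 3′ on the strand of the gene, with the matching letters, or their reverse complement, in capitals. Psmb5 is at chr14:54617996-54618245 (minus strand), Psmb6 at chr11:70525107-70525356 (plus), Psmc6 at chr14:45329574-45329823 (plus), Psmd9 at chr5:123227940-123228189 (plus) and Psmd12 at chr11:107479278-107479527 (plus).
Psmb5: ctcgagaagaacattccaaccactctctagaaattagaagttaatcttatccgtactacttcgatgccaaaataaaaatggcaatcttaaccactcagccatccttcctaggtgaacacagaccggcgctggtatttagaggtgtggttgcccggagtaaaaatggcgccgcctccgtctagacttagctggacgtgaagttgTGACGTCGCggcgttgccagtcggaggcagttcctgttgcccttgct
Psmb6: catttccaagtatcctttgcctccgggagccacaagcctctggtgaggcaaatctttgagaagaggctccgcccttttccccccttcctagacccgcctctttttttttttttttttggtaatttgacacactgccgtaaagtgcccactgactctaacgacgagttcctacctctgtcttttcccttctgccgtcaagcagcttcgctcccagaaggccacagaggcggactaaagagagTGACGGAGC
Psmc6: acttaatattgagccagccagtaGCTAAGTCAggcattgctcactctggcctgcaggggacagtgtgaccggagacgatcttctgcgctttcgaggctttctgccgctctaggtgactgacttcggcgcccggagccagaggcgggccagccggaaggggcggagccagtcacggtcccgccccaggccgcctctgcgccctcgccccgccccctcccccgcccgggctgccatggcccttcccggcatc
Psmd9: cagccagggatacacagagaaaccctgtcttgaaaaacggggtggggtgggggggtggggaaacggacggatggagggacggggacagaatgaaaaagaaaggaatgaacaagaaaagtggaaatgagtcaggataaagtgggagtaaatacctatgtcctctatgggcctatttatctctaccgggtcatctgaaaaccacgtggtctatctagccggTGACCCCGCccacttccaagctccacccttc
Psmd12: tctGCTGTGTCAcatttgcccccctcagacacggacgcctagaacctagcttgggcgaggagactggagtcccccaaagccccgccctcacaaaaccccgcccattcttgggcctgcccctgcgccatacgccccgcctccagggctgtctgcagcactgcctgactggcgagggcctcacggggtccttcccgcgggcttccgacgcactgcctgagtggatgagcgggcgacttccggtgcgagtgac
The first base of the match lies 47 bases before the start in Psmb5, 9 in Psmb6 and 31 in Psmd9, read on the strand shown. In Psmc6 and Psmd12 the match is on the opposite strand and begins, as printed, 227 and 247 bases before the start. Of these 5 genes Psmb5, Psmb6 and Psmc6 fell, Psmd9 rose and Psmd12 did not pass the test, with differences of -0.42, -0.31, -0.40, 0.21 and -0.036. With cyclic loess Psmb6 was at -0.095 without a call and Psmd12 was called higher at 0.17.

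The alpha ring was mixed in size but did not rise in any member that passed. Its 8 genes had a median of -0.15, and 4 of them fell while 4 did not pass, where 38.8% of all genes fell. Psma7, which encodes a subunit of the alpha ring, had the largest difference of them. Its values were 11.00, 11.01 and 10.96 in wild type against 10.40, 10.49 and 10.44 in deleted samples. Every deleted sample thus lay below every wild type sample, by 0.55 on average (SE 0.054, adjusted p = 0.000108), a 1.46-fold lower level. Psma4 was 11.82, 11.89 and 11.75 in wild type against 11.50, 11.49 and 11.47 in deleted samples, a fall of 0.33 (adjusted p = 0.00185) that was -0.12 and not called with cyclic loess. Psma2 and Psma3 fell by 0.20 and 0.17 (adjusted p = 0.0143 and 0.0292), close to the shift of all genes, and with cyclic loess both turned positive, at 0.021 and 0.047, without a call. Psma2 lost its call without deleted replicate 1 (adjusted p = 0.059), and Psma3 without wild type replicate 2 or 3 or deleted replicate 1 or 3 (up to 0.0906).

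The other alpha subunit genes gave no call. Psma1 was 11.00, 11.16 and 11.11 in wild type against 11.03, 11.06 and 10.94 in deleted samples, with overlap and a difference of -0.084 (95% interval -0.24 to 0.07). Psma6 was 11.64, 11.62 and 11.75 in wild type against 11.54, 11.59 and 11.50 in deleted samples, without overlap and with a difference of -0.13 (-0.27 to 0.01). Neither interval excludes 0, and both differences were called lower with median centring, at -0.24 and -0.29. Psma5 measured 10.90, 10.93 and 10.87 in wild type against 10.98, 11.04 and 11.04 in deleted samples. All 3 deleted samples were higher, but the difference of 0.12 did not pass (adjusted p = 0.0792), and it was called higher with cyclic loess at 0.34. Psma8, a testis-specific relative of Psma7, did not exceed the bacterial controls in either group (4.38 ± 0.19 and 4.74 ± 0.36). Its level could not be read from the array, and over the other 7 genes the median of the alpha ring was -0.175.

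The beta ring held 5 falls among 7 measured genes, with a median of -0.27, and no rise, where the background is 38.8% lower and 22.4% higher. Psmb1, a structural beta subunit without a proteolytic site, had the largest fall of the core. It measured 11.88, 11.99 and 11.89 in wild type against 11.21, 11.23 and 11.19 in deleted samples. The gap between the groups was several times the spread within them, with a difference of -0.71 (SE 0.056, adjusted p = 3.36e-05), a 1.64-fold lower level. Median centring gave -0.87 and cyclic loess -0.50. A difference as low or lower was found in 9.81% of all genes. The structural subunit genes Psmb4 and Psmb3 fell by 0.27 and 0.26 (adjusted p = 0.0026 and 0.0288), and neither was called with cyclic loess. Psmb3 also lost its call without replicate 1 or 2 of either group (adjusted p up to 0.0861). Psmb2, another structural subunit gene, measured 10.67, 10.49 and 10.61 in wild type against 10.69, 10.69 and 10.70 in deleted samples. The deleted samples were all higher by a narrow margin, and the difference of 0.10 did not pass (adjusted p = 0.185). It was -0.057 with median centring, and called higher at 0.31 with cyclic loess. Psmb11, a thymus-specific subunit gene, was not analysed here.

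Of the 3 genes of proteolytic beta subunits 2 fell and 1 did not pass, beside 38.8% of all genes called lower. Psmb5 carries the chymotrypsin-like site and fell from 10.57, 10.65 and 10.60 in wild type to 10.17, 10.20 and 10.20 in deleted samples. This was a difference of -0.42 (SE 0.051, adjusted p = 0.000362), or 1.34-fold lower. Psmb6 carries the caspase-like site and went from 11.06, 11.08 and 11.05 to 10.78, 10.75 and 10.74, a fall of 0.31 (SE 0.049, adjusted p = 0.00127). Psmb7 carries the trypsin-like site and measured 10.63, 10.77 and 10.81 in wild type against 10.66, 10.67 and 10.68 in deleted samples. Its groups overlapped, with a difference of -0.066 (95% interval -0.22 to 0.09, adjusted p = 0.396), and it was called lower with median centring at -0.23.

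Each proteolytic subunit has an inducible counterpart, and these were set beside them. Psmb8, which replaces Psmb5, and Psmb10, which replaces Psmb7, fell by 0.17 and 0.23 (adjusted p = 0.0317 and 0.00912), and Psmb9, which replaces Psmb6, differed by 0.065 (adjusted p = 0.355). Neither fall was called with cyclic loess, at 0.050 and -0.016, where Psmb9 was called higher at 0.28. The log2 ratio of Psmb5 to Psmb8 within an array changed by -0.25, that of Psmb6 to Psmb9 by -0.37 and that of Psmb7 to Psmb10 by 0.16. In all 3 pairs the ratios of the groups did not overlap. Among single genes 43.1% were lower and 24.3% higher without overlap, and the share for ratios of other gene pairs was not determined. The exact permutation test over samples, two-sided, gave p = 0.1 for each pair (also adjusted over the 3 pairs), the smallest value that this test can give with 3 against 3 samples, so it could not pass the threshold.

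All 6 genes of the ATPase ring in the base of the cap passed the test, 5 of them lower and 1 higher, with a median of -0.25, beside 61.2% of all genes called. With cyclic loess 3 of the 6 kept a call. Psmc1, one of the ATPases whose tails dock into the alpha ring and open its gate, was the member that rose most. Its values were 9.02, 9.04 and 8.97 in wild type against 9.42, 9.39 and 9.44 in deleted samples. The deleted samples were higher by 0.40 (SE 0.051, adjusted p = 0.000413), 1.32-fold, and the rise was 0.24 when median centred and 0.60 after cyclic loess. Psmc3, whose tail also docks into the alpha ring, went the other way, from 10.72, 10.73 and 10.75 to 10.29, 10.35 and 10.25. It fell by 0.44 (SE 0.053, adjusted p = 0.000347). Psmc6 went from 10.47, 10.51 and 10.47 to 10.07, 10.15 and 10.02, a fall of 0.40 (adjusted p = 0.000758). Psmc4, Psmc5 and Psmc2 fell by 0.28, 0.21 and 0.15 (adjusted p = 0.0031, 0.0215 and 0.0468). Psmc2, with the smallest difference of the ring, was 10.77, 10.75 and 10.66 in wild type against 10.56, 10.57 and 10.59 in deleted samples, without overlap. With cyclic loess those 3 were not called, and Psmc2 was at 0.059. Psmc5 lost its call without wild type replicate 2 or 3 or deleted replicate 1 or 3 (adjusted p up to 0.0706), and Psmc2 without any 1 sample other than wild type replicate 3 (up to 0.128).

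Of the 3 non-ATPase genes of the base 2 rose and 1 did not pass, beside 22.4% of all genes called higher and 38.8% lower. Psmd1 and Psmd2 encode the large scaffold proteins on which ubiquitin receptors dock. Psmd1 measured 9.54, 9.52 and 9.44 in wild type against 9.68, 9.73 and 9.65 in deleted samples, and rose by 0.19 (adjusted p = 0.0232). Psmd2 measured 10.35, 10.39 and 10.34 against 10.54, 10.44 and 10.55, and rose by 0.15 (adjusted p = 0.0477). Both groups of values were separate but close, and with median centring the differences were 0.027 and -0.0081 and not called. The call of Psmd1 was lost without wild type replicate 3 or deleted replicate 1 or 2 (adjusted p up to 0.0696), and that of Psmd2 without any 1 sample other than deleted replicate 2 (up to 0.137). Psmd4, an intrinsic ubiquitin receptor, was 10.76, 10.70 and 10.74 in wild type against 10.65, 10.65 and 10.66 in deleted samples. The deleted samples were lower by a narrow margin, and the difference of -0.079 (95% interval -0.20 to 0.04) did not pass, but was called lower with median centring at -0.24.

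In the lid 3 of 8 genes fell, 1 rose and 4 did not pass, with a median of -0.08, beside 38.8% of all genes lower and 22.4% higher. Psmd14, the metalloprotease that cuts ubiquitin chains from the substrate, had the largest difference. It measured 11.38, 11.31 and 11.35 in wild type against 10.93, 10.93 and 10.91 in deleted samples, a fall of 0.43 (SE 0.050, adjusted p = 0.00028), or 1.34-fold. Psmd7, the inactive partner with which Psmd14 forms a dimer, measured 8.55, 8.80 and 8.83 in wild type against 8.80, 8.82 and 8.84 in deleted samples. Wild type replicate 1 was lower than the rest and the groups overlapped, with a difference of 0.097 (adjusted p = 0.333). The difference of Psmd7 was called higher with cyclic loess, at 0.28.

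The scaffold genes of the lid went both ways. Psmd8 and Psmd6 fell by 0.33 and 0.28 (adjusted p = 0.0039 and 0.00509), and neither was called with cyclic loess. Psmd3 measured 9.29, 9.19 and 9.22 in wild type against 9.53, 9.50 and 9.45 in deleted samples, and rose by 0.26 (adjusted p = 0.0053), though with median centring it was 0.10 and not called. Psmd11, which helps to hold cap and core together, was 10.52, 10.44 and 10.60 in wild type against 10.39, 10.39 and 10.40 in deleted samples, a difference of -0.13 (95% interval -0.27 to 0.01) that did not pass although the groups did not overlap, and that was called lower with median centring at -0.29. The scaffold genes Psmd12 and Psmd13 had the smallest differences of the members. Psmd12 was 9.81, 9.79 and 9.93 in wild type against 9.79, 9.84 and 9.79 in deleted samples, a difference of -0.036 (-0.18 to 0.10). Psmd13 was 9.35, 9.29 and 9.30 in wild type against 9.35, 9.31 and 9.34 in deleted samples, a difference of 0.024 (-0.10 to 0.14). The groups overlapped in both, and both were called lower with median centring and higher with cyclic loess.

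The symbol rule also admits 3 genes of chaperones that help to assemble the base and leave the finished particle, and they held the largest fall of the 35 members. Psmd10 encodes gankyrin, which binds the ATPase Psmc4 during assembly and is also known as an oncoprotein. It measured 8.63, 8.74 and 8.79 in wild type against 7.86, 8.05 and 7.87 in deleted samples. All deleted samples lay well below wild type, with a difference of -0.80 (SE 0.076, adjusted p = 9.19e-05), 1.74-fold lower, and -0.62 with cyclic loess. Psmd5, which chaperones Psmc1 and Psmc2, went from 9.18, 9.24 and 9.09 to 8.51, 8.53 and 8.47, a fall of 0.67 (SE 0.060, adjusted p = 6.74e-05). Psmd9, which chaperones Psmc3 and Psmc6, measured 7.27, 7.32 and 7.38 in wild type against 7.46, 7.60 and 7.55 in deleted samples and rose by 0.21 (adjusted p = 0.0235). That rise was 0.050 and not called with median centring, and it was lost without wild type replicate 1 or 2 or deleted replicate 2 or 3 (adjusted p up to 0.0721). Without these 3 genes and Psma8, the remaining 31 subunit genes had a median of -0.175. They held 17 falls (54.8%) and 4 rises (12.9%), beside 38.8% and 22.4% of all genes.

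Further probe sets existed for 17 of the members, 29 in all, of which 7 were inside the background range in both groups. Of the other 22, 20 had the sign of the probe set used. The exceptions were a dim set of Psmd4 (0.040) and another set of Psmd11 (0.039), neither of them called. Some genes differed in size between probe sets. The brightest Psmc6 set gave -0.40 and dimmer ones -0.88 and -0.82, and Psmd6 gave -0.28 and -0.75. Psma6 was not called with the set used (-0.13), but another set fell by 0.36 (adjusted p = 0.00128 over all probe sets). Another 3 Psmd11 sets fell too, by 0.26, 0.37 and 0.45 (adjusted p = 0.0117, 0.00117 and 0.00732), and another Psmd4 set fell by 0.27 (0.0185). In the other direction, Psmd9 rose with the set used but another set gave 0.014 (adjusted p = 0.937), another Psmc4 set gave -0.23 (0.111), and 2 dim Psmb1 sets gave -0.22 and -0.31 (0.0633 and 0.0699). For these 6 genes the call depends on the probe set, where the set used is called with adjustment over all genes. The call of Psmb1 nonetheless held in all 16 alternative fits run for it, including the average over its probe sets. Psmc2 was lower with each of its sets. Adjusted over all probe sets, the Psmc2 set used did not pass (-0.15, adjusted p = 0.0633) while the other did (-0.29, 0.00506).

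Of 38 genes listed as partners and regulators of the proteasome, 28 were measured, and 17 of them fell and 8 rose, beside the same background of 38.8% and 22.4%. The median of the 28 measured genes was -0.20. The other 10 were not analysed here. Among the chaperones that build the core, Psmg1, Psmg2, Psmg3 and Psmg4 fell by 0.47, 0.73, 0.18 and 0.57 (adjusted p = 0.000158, 0.00039, 0.0281 and 0.000195). Psmg1 and Psmg2 act as a dimer on the alpha ring, and Psmg2 measured 8.76, 8.94 and 9.03 in wild type against 8.20, 8.28 and 8.06 in deleted samples, with no overlap. With cyclic loess Psmg3 was at 0.013 without a call. Pomp, which promotes the joining of partly built cores, differed by 0.10 (adjusted p = 0.0992).

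**Figure D4:**
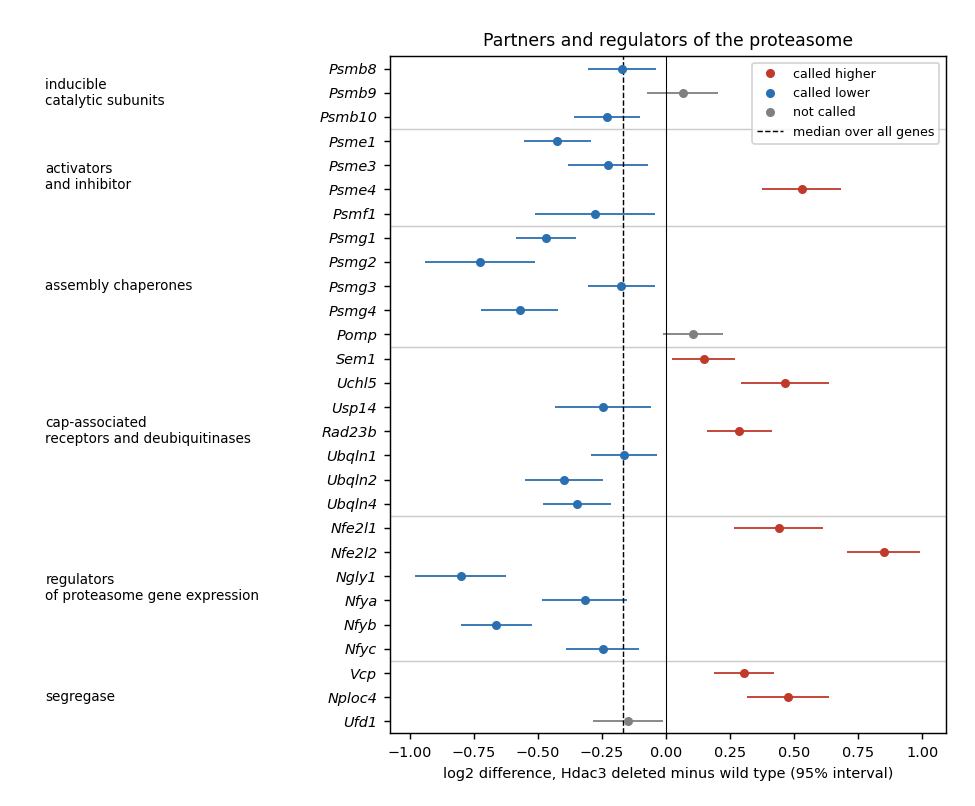
Log2 difference (Hdac3 deleted minus wild type, horizontal axis) with its 95% interval for the 28 measured partner and regulator genes, grouped by role (vertical axis). Red points were called higher and blue points lower on the deposited scale, grey points were not called, and the dashed line is the median over all genes (-0.17). Nfe2l2 lies farthest to the right at 0.85 and Ngly1 farthest to the left at -0.80.

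Activators that cap the core in place of the ATPase ring differed in direction. Psme4, a large activator with nuclear roles, measured 9.04, 8.98 and 9.16 in wild type against 9.64, 9.58 and 9.55 in deleted samples, and rose by 0.53 (adjusted p = 0.000353). Psme1, a subunit of the interferon-induced activator, went from 12.29, 12.33 and 12.40 to 11.92, 11.94 and 11.88 and fell by 0.42 (adjusted p = 0.000458). Psme3, the nuclear relative of Psme1, and the inhibitor gene Psmf1 fell by 0.23 and 0.28 (adjusted p = 0.0214 and 0.0432). Of the deubiquitinases on the cap, Uchl5 rose by 0.46 and Usp14 fell by 0.25 (adjusted p = 0.00119 and 0.0299). Among shuttle receptors that bring substrates, Rad23b rose by 0.29 while Ubqln1, Ubqln2 and Ubqln4 fell by 0.16, 0.40 and 0.35 (adjusted p = 0.00298, 0.0335, 0.00144 and 0.00142). The small lid subunit gene Sem1 rose by 0.15 (adjusted p = 0.0429), a call that was lost when any 1 sample was left out (up to 0.118). The segregase that extracts substrates had its ATPase gene Vcp and its adaptor gene Nploc4 higher by 0.30 and 0.48 (adjusted p = 0.00141 and 0.000747), while Ufd1 differed by -0.15 (adjusted p = 0.0607). Among the activators, deubiquitinases, shuttle receptors and segregase genes, the calls of Psme1, Psme4, Uchl5, Ubqln2, Ubqln4, Vcp and Nploc4 were the same with median centring and cyclic loess.

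Genes that control transcription of the subunits had the widest range. Nfe2l1 measured 8.71, 8.59 and 8.49 in wild type against 9.07, 8.96 and 9.08 in deleted samples, and rose by 0.44 (SE 0.073, adjusted p = 0.0017). Nfe2l2, its relative in the oxidative stress response, went from 8.90, 9.05 and 8.98 to 9.81, 9.86 and 9.80, a rise of 0.85 (SE 0.061, adjusted p = 2.17e-05), 1.8-fold. Ngly1, the enzyme that removes sugar chains from the Nfe2l1 protein as it is activated, measured 9.55, 9.63 and 9.73 against 8.83, 8.93 and 8.74 and fell by 0.80 (SE 0.074, adjusted p = 8.22e-05). The CCAAT factor genes Nfya, Nfyb and Nfyc fell by 0.32, 0.66 and 0.25 (adjusted p = 0.00624, 6.19e-05 and 0.00995). The calls of Nfe2l1, Nfe2l2, Ngly1 and Nfyb were the same with median centring and cyclic loess. Transcript levels on the array do not show the processing and stability through which the Nfe2l1 and Nfe2l2 proteins are mainly controlled.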

How the data were processed

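Values were deposited as log2 expression per probe set, made by the authors with robust multiarray averaging in MAYDAY 2.12, per the labels, from 1 array per sample. Total RNA per cell cannot be read from values scaled in this way. Of 22690 probe sets, 64 controls were left out. Of the remaining 22626, 20380 had 1 platform symbol, 691 several and 1555 none, which gave 12393 genes, each represented by its brightest probe set. The 35 members carry the same symbol in RefSeq by Entrez identifier. The number of arrays limits the precision.

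Samples were grouped by title. The test was limma 3.58.1 in R 4.3.3 (lmFit and eBayes, two-sided), with Benjamini-Hochberg adjustment over all genes at 0.05, and with the authors' 2-fold threshold beside it. The fit was tested on simulated data. Catalytic pairs were tested by exact permutation with scipy 1.17.1. Tables and plots used Python 3.11.15, pandas 2.3.3 and matplotlib 3.10.9. The members and gene lists were chosen with earlier results of these data known. Values are given in full for catalytic subunits, for the extremes of each role group, for uncalled members and for those whose probe sets disagree, as the rule for named genes set out; others by difference. Alternatives were the methods' t-test (p-values over the same log2 values), a replicate block, repeated quantile normalization, median centring, cyclic loess and array weights. A trended and robust prior, removal of the dimmest 33.3%, a 1.5-fold threshold and each sample left out in turn were also run. So were averaging over the probe sets of a gene, leaving out probe sets whose names end in _x_at or _s_at, and adjustment over all probe sets.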

Additional observations from a re-analysis of the deposited data

How the results depend on the processing

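The calls that depend least on processing are the falls of Psma7, Psmb1, Psmb5, Psmc3, Psmc6, Psmd5, Psmd10 and Psmd14 and the rise of Psmc1. These calls held under all 4 scalings and with each sample left out. Median centring moved every difference by -0.16, against the rise but with the falls. Repeated quantile normalization moved the median of all genes by 0.028 and cyclic loess by 0.17, so for the falls only cyclic loess was a demanding check. Differences near the general shift took their sign from the scaling, and the cause was not tested for any change below. With quantile normalization applied again, 3 members were called higher and Psmd13 was at -0.0032. With median centring 1 member was called higher, 7229 of all genes were called lower, the core median was -0.36 and the cap median -0.30. The differences of Psma5 (-0.038), Psmb2 (-0.057), Psmd2 (-0.0081), Psmd7 (-0.063), Psmd13 (-0.14), Psmb9 (-0.095), Pomp (-0.055) and Sem1 (-0.014) then turned negative. With cyclic loess 10 members were called higher and 8 lower, 8 companion genes and 2912 of all genes were called lower, and the core and cap medians were 0.021 and 0.071. Psma1 (0.13), Psma2 (0.021), Psma3 (0.047), Psma6 (0.089), Psmb7 (0.15), Psmc2 (0.059), Psmd4 (0.13), Psmd11 (0.082), Psmd12 (0.17), Psmb8 (0.050), Psmg3 (0.013), Ubqln1 (0.044) and Ufd1 (0.029) then turned positive. When all probe sets of a gene were averaged, the cap median was -0.22, and Psma1, Psma6 and Psmd7 were at 0.19, 0.0002 and -0.062. The averages of these genes include probe sets inside the background range in both groups. Those sets were at 0.51 and 0.14 for Psma1, 0.53 for Psma6 and -0.36 for Psmd7. Without probe sets whose names end in _x_at or _s_at, which leaves other probe sets for some genes, the core median was -0.26 and Psmd11 was at 0.039. At a 1.5-fold threshold 3 members passed (Psmb1, Psmd5 and Psmd10), all lower, beside 13.7% of all genes lower. Leaving out each sample in turn gave 3 to 4 members called higher (3 without any sample other than Hdac3 deleted replicate 3), 14 to 17 lower, 0 past 2-fold, 7 companion genes higher and 11 to 14 lower (11 without Hdac3 deleted replicate 1), 2540 to 2650 of all genes higher and 4266 to 4579 lower, a core median of -0.21 to -0.18 and a cap median of -0.15 to -0.13. Psmd12 ranged from -0.062 to 0.0053, the latter without wild type replicate 3. In those fits 14 of the 19 lower and 2 of the 5 higher member calls held every time, the exceptions being named beside their values, with 11 of 17 and 7 of 8 for the companion genes. The matching share of calls over all genes was not determined. Psmb8, Psme3, Psmf1, Psmg3, Usp14 and Ubqln1 each lost the call in at least 4 of the 6 fits with 1 sample left out (highest adjusted p 0.085, 0.0762, 0.123, 0.0982, 0.0791 and 0.0942). The deviations of same-numbered samples correlated at 0.09, 0.06 and -0.20, and 2 of 6 samples correlated best with their own number, so the numbers were not taken as pairs. A replicate block gave 4 members higher and 16 lower, and 2631 and 4657 of all genes. The methods' t-test, array weights, a trended robust prior, leaving out dim probe sets and adjustment over all probe sets kept every count within 1.5 times. Probe sets in the range of the bacterial controls, among them Psma8 and Foxp3, give no level that can be read.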
